A study of Mus musculus with 6 samples.

Results

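The genes that encode the nuclear subunits of oxidative phosphorylation were compared between regulatory T cells of wild-type mice and of mice lacking Il33. They were chosen by symbol among protein-coding genes (Nduf, Sdh, Uqcr, Cox4 to Cox8 and Atp5 families) and by level: the selection used a mean of at least 10 normalized counts over all 6 libraries. Of 37187 genes in the deposited tables, 87 symbols matched, 2 of these were not protein-coding and 6 lay below the minimum, which left 79 members. Complex I had 35 members, complex II 4, complex III 8, complex IV 13 and complex V 15. A further 4 are not structural subunits: Cox7a2l encodes a factor that joins complexes III and IV, while Atp5sl, Atp5s and Cox4nb matched by symbol. Ndufa4 was counted with complex IV, where its protein is found. Every member passed the minimum in both groups, and every member passed the filter on low counts in the test. Just inside the minimum lay Cox7a1 at 12.4 and Cox6b2 at 14.5 normalized counts, and just outside it Cox4i2 at 6.33.

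Oxidative phosphorylation runs in the inner mitochondrial membrane. Complexes I and II take electrons from NADH and succinate, complex III passes them to cytochrome c, complex IV passes them to oxygen, and complex V, the ATP synthase, uses the proton gradient built by complexes I, III and IV to make ATP. Most subunits are encoded in the nucleus and a small set in mitochondrial DNA. Regulatory T cells (Tregs), a CD4 lineage that depends on Foxp3 and holds immune responses in check, are known to draw on this respiration for their suppressive function.

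The RNA came from Tregs sorted as CD4+CD25+GITR+ cells out of lymph nodes draining a B16.F10 melanoma, a transplantable mouse tumour, on day 14 after 300000 tumour cells had been injected under the skin. One group was C57BL6 (WT, replicates 1 to 3) and the other il33-/- on that background (KO, replicates 4 to 6), so n = 3 per group and both groups bore tumours. IL-33 is an alarmin cytokine that acts on cells carrying the receptor ST2. Il33 itself had 7, 0 and 9 counts in the WT and 3, 8 and 2 in the KO libraries. It could not check the labels, since the sources used here do not say which part of it was deleted. The labels do not state that each library came from its own animal, so a p-value here reflects only how far these libraries differ, which may be technical. In such bulk RNA, fewer cells of a type and less RNA per cell cannot be told apart.

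Library totals ran from 18071928 to 21165063 counts, of which the members held 0.596% to 0.658%. All 9 Treg markers tested, Foxp3 among them, were above 1 CPM (counts scaled to a common library size) in every library. They summed to 4049 to 4701 CPM in WT and 5037 to 5270 in KO. The 16 T lineage markers summed to 7106 to 7594 CPM in WT and 7687 to 8110 in KO. For both lists the sums were higher in KO and the groups did not overlap. The 18 B cell markers, 17 of them above 1 CPM in every library and none at 0 throughout, had sums of 2352, 1227 and 1820.4 CPM across the WT libraries and of 463.5, 604.7 and 369 CPM across the KO libraries, so the summed groups did not overlap. Cd72 alone held 558 CPM in WT replicate 2, and without it the sums were 2266, 669 and 1747 CPM in WT and 419, 562 and 328 in KO. All 18 had a lower mean in KO, and for 4 of them the groups overlapped. The CD8 and NK list held 51.9 to 59.9 CPM in WT and 40.2 to 50.7 in KO, and the myeloid and dendritic list 42.0 to 59.9 and 33.4 to 49.5. The melanoma list held 20.7 to 27.6 CPM in WT and 28.8 to 33.9 in KO, nearly all of it Pmel, with 3 of its 6 markers at 0 in all libraries. What part these other transcripts play in the members' values was not tested. Fits with a B cell score (mean log2 CPM of the markers) as covariate and with left-out libraries are given below. The score was 6.57, 5.05 and 6.21 in WT and 4.25, 4.64 and 3.93 in KO. Since it separates the groups, a fit with it as covariate cannot tell the score and the group apart.

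Many promoters of these genes hold short sequence words of a few transcription factors, which are described here. Whether the words bear on the members' values in any library was not tested. RefSeq promoters (GRCm38.p6, 250 bases before to 50 after a gene's start) were found for 64 members, 69 promoters in all. Each word was searched on both strands. The NRF1 word GCGCNTGCG was in 24 member promoters (34.8%) and in 6.31% of all 32851 promoters in the table. The GABPA word CCGGAAG, of the ETS family, was in 16 (23.2%, against 8.86%), and the YY1 word AAGATGGC in 9 (13.0%, against 2.75%). The ERR alpha word TCAAGGTCA was in 2 (2.90%, against 0.423%). The GC box GGGGCGG, bound by SP1, was in 18 (26.1%, against 23.2%). Any of the first 4 words occurred in 41 member promoters (59.4%) and in 16.4% of all promoters. These matches are a description of the letters in the window and show no binding. The promoters in the table were not matched to those of the members by base content or expression.

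By complex, NRF1 words were in 10 of 33 promoters of complex I, 2 of 3 of complex II, 3 of 5 of complex III, 1 of 11 of complex IV and 8 of 16 of complex V. YY1 words were in 7 promoters of complex I and 2 of complex V. One example per complex follows, picked for the words it holds, so it does not stand for the other promoters of its complex. Shown are the 150 bases before the start, 5′ to 3′ on the gene's strand, with NRF1 and ETS words on either strand in capitals. All 5 genes lie on the minus strand: Ndufa8 at chr2:36049339-36049488, Sdha at chr13:74350241-74350390, Uqcrh at chr4:116075071-116075220, Cox6a1 at chr5:115348959-115349108 and Atp5k at chr5:108434400-108434549.
Ndufa8: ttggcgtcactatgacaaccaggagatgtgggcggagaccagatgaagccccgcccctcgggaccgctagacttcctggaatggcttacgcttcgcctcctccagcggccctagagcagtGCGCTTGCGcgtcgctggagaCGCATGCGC
Sdha: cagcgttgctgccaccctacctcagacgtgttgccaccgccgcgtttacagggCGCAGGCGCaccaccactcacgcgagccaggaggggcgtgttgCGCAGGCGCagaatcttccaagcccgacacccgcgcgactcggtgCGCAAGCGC
Uqcrh: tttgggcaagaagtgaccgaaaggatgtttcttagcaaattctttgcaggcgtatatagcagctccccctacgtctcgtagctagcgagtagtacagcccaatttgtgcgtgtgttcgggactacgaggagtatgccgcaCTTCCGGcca
Cox6a1: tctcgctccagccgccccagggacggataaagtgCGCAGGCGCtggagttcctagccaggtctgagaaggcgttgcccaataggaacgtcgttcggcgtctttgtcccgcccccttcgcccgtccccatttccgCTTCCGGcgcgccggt
Atp5k: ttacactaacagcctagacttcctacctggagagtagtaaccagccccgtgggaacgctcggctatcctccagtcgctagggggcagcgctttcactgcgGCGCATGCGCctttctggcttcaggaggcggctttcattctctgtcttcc
Ndufa8, an accessory subunit of complex I, carries 2 NRF1 words next to its start, and Sdha carries 3. Uqcrh carries 1 ETS word, Cox6a1 an NRF1 and an ETS word, and Atp5k a stretch that reads as the NRF1 word on both strands. The factors themselves, chosen here because of these words and after their values were seen, were not called in the test described next. Nrf1 measured 73.3 ± 4.76 CPM in WT and 76.2 ± 1.59 in KO (SD, n = 3 each), Gabpa 108.5 ± 6.91 and 106.2 ± 6.28, Yy1 177 ± 6.02 and 177 ± 9.73, and Esrra, which encodes ERR alpha, 50.1 ± 2.71 and 48.0 ± 2.67.

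No member passed the test between KO and WT. Raw counts were fitted across all genes with edgeR's quasi-likelihood test, two-sided, with Benjamini-Hochberg adjustment over all 13626 genes tested and a threshold of 0.05 on the adjusted p. Of all genes 6.50% were called, 3.68% higher and 2.83% lower in KO, and of the 79 members 0 were called in either direction. At an unadjusted p under 0.05 there were 8 members (10.1%), against 21.8% of all genes. The smallest adjusted p among members in edgeR was 0.125, for Cox7c. limma-voom, which called 5.14% of all genes, also called 0 members. DESeq2 called 8.03% of all genes and 1 member, Atp5sl, as lower.

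Member fold changes were small and centred near 0. Their median log2 fold change (KO minus WT) was 0.011, with quartiles of -0.04 and 0.07, beside a median of 0.00026 and quartiles of -0.12 and 0.13 over all genes tested. Values lay above 0 for 46 members and below 0 for 33. The 95% interval stayed within 1.25-fold either way for 64 members (81.0%), against 44.3% of all genes and 75.3% of the 2952 genes whose mean CPM lay between 31.6 and 79.5, the quartiles of the members' mean CPM in WT. It stayed within 1.5-fold for 74 members (93.7%), against 66.8% of all genes and 94.8% of those 2952. The members' shares count all members, also those outside that range of CPM, so the 2952 genes match them in expression only in part. The narrowest interval belonged to Atp5b, the beta subunit of the ATP synthase, at -0.13 to 0.09, and the widest to the low muscle-type isoform gene Cox7a1, at -0.91 to 1.53.

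**Figure D1:**
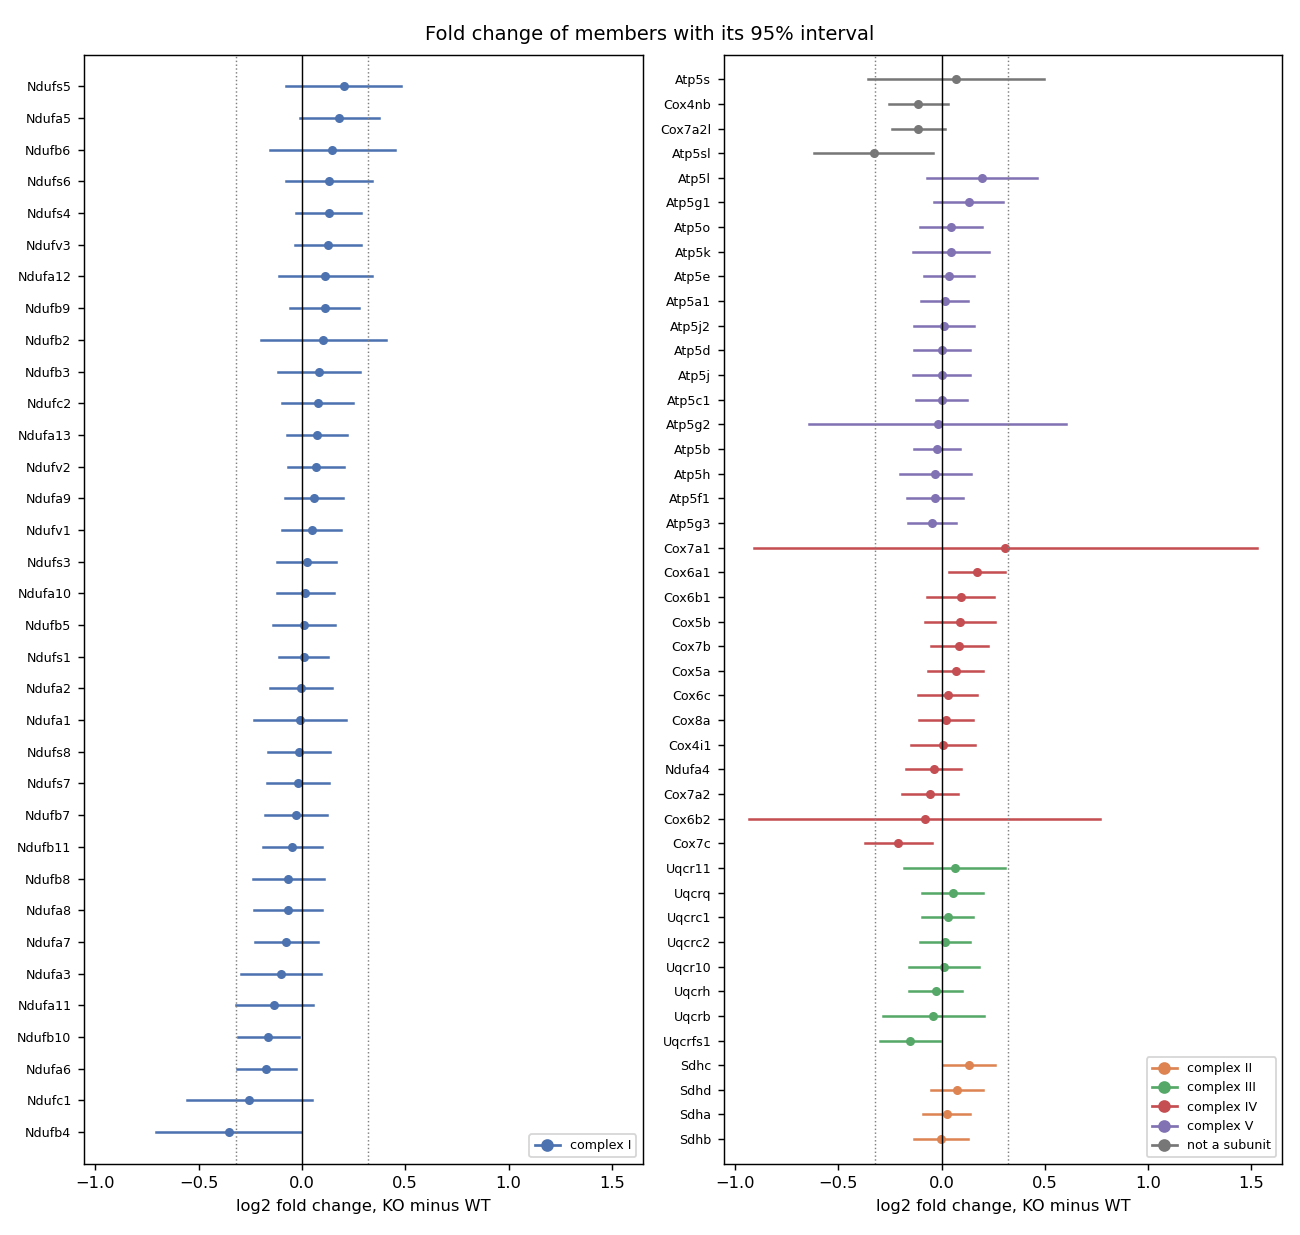
Log2 fold change of 78 of the members, KO minus WT, as a point with its 95% interval from the edgeR fit, coloured by complex, with dotted lines at 1.25-fold. For 63 of them the interval lies between the dotted lines, and none was called at an adjusted p of 0.05.

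Summing the counts of a complex gives a bound on a shift of its summed expression, for which no p is given. The sums are not scaled to gene length, so genes with many counts weigh most. These are Atp5a1 and Atp5b in complex V and Sdha in complex II, with values given below. A shift in a member with few counts would hardly move the sum. Values are given in the order of the replicate numbers. Complex I, the NADH dehydrogenase, had 1572, 1564 and 1578 CPM in the WT libraries, and the KO sums were 1508, 1567 and 1660.3 CPM. The fitted difference was 0.458%, with a 95% interval of -7.09% to 8.62%. The KO libraries lay on both sides of the WT libraries.

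Complex II, succinate dehydrogenase, summed to 470.3, 463 and 474 CPM in WT and 467, 487 and 492 CPM in KO, a difference of 2.73% (95% interval -4.61% to 10.6%). Complex III, the cytochrome c reductase, summed to 652, 665 and 669 CPM in WT and 627, 656 and 691 CPM in KO, a difference of -0.567% (95% interval -8.10% to 7.59%). In both complexes the groups overlapped.

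Complex IV, cytochrome c oxidase, summed to 850.4, 871 and 873 CPM in WT and 825, 892 and 940.1 CPM in KO, a difference of 2.42% with a 95% interval of -5.86% to 11.4%. Complex V summed to 2404, 2472 and 2409.7 CPM in WT and 2315, 2443 and 2517 CPM in KO, a difference of -0.144% with a 95% interval of -7.57% to 7.88%. Across the 5 complexes the bounds thus reached from -8.10% to 11.4%. The 75 structural subunits together held 5995 ± 43.7 CPM in WT and 6029 ± 279.7 in KO (SD, n = 3 each). With B cell score added as covariate the intervals of the 5 complexes reached from -18.5% to 22.4%.

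**Figure D2:**
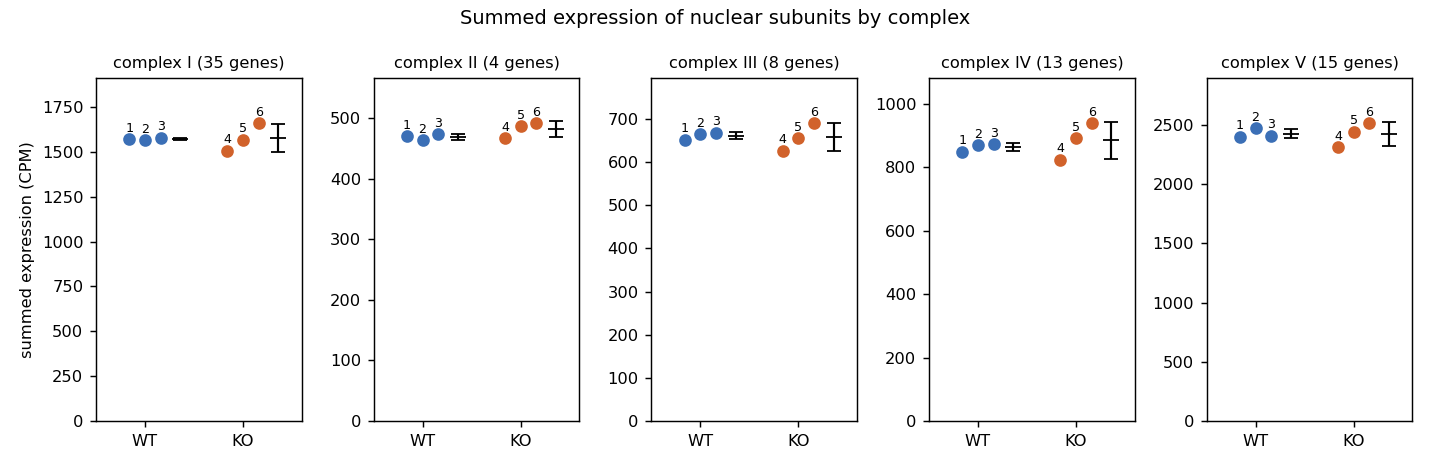
Summed CPM of the nuclear subunits of complexes I to V in each library, with the replicate number above each point and the group mean ± SD (n = 3) beside the points, on axes that start at 0. The KO points lie on both sides of the WT points in every complex but II, where KO replicate 4 lies among them, and they spread more widely.

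Complex I is built from core subunits that carry the redox centres and accessory subunits around them. The 7 nuclear core subunits had log2 fold changes of -0.02 to 0.07 and all had intervals within 1.25-fold. Ndufv1, which binds NADH, measured 72.5, 69.6 and 66.5 CPM in WT and 66.6, 72.7 and 76.2 in KO. Ndufs1, the largest iron-sulfur subunit, measured 87.8, 92.6 and 91.8 CPM in WT and 90.3, 91 and 92.5 in KO. The groups overlapped for both genes. Among further core subunits, the log2 fold change was 0.02 for Ndufs3, -0.02 for Ndufs7, -0.01 for Ndufs8 and 0.07 for Ndufv2.

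The 28 accessory subunits of complex I ranged more widely, from -0.35 to 0.20. Ndufb4, with the lowest log2 fold change of the complex, measured 6.46, 6.76 and 5.53 CPM in WT and 4.67, 5.43 and 4.57 in KO, a log2 fold change of -0.35 with an SE of 0.16 and an edgeR adjusted p of 0.224. Ndufs5, with the highest log2 fold change of the complex, measured 8.40, 8.11 and 7.36 CPM in WT and 8.77, 9.58 and 9.14 in KO, a log2 fold change of 0.20 with an SE of 0.13 and an edgeR adjusted p of 0.405. In neither gene did the groups overlap. Ndufb4 shares 37.0% and Ndufs5 31.1% of the 50-base words of its transcript with other annotated genes, and their counts are therefore uncertain.

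Ndufa6, an accessory subunit of the LYR family, measured 66.3, 62.9 and 70.3 CPM in WT and 56.6, 57.6 and 62.8 in KO, a log2 fold change of -0.17 with an SE of 0.07 and an edgeR adjusted p of 0.149. Ndufb10 measured 57.0, 61.9 and 53.7 CPM in WT and 51.4, 49.3 and 53.4 in KO, a log2 fold change of -0.16 with an SE of 0.07 and an edgeR adjusted p of 0.187. Every KO library lay below every WT library in both genes, by a small margin. Groups did not overlap for 13 members in all, 5 higher and 8 lower in KO, which is 16.5% of members beside 26.3% of all genes tested.

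Complex II is encoded entirely in the nucleus. Its flavoprotein gene Sdha measured 245, 231 and 243 CPM in WT and 237, 243 and 251 in KO, a log2 fold change of 0.02. The iron-sulfur subunit gene Sdhb measured 98.8, 109 and 103 CPM in WT and 98.4, 108 and 104 in KO, a log2 fold change of -0.0033. For these catalytic subunits the groups overlapped.

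The membrane anchors had the larger log2 fold changes. Sdhc measured 55.7, 54.4 and 57.8 CPM in WT and 61.3, 60.7 and 62.2 in KO, a log2 fold change of 0.13 with an SE of 0.06 and an edgeR adjusted p of 0.202, and the groups did not overlap. Sdhd measured 70.6, 68.8 and 69.7 CPM in WT and 69.9, 75.7 and 74.6 in KO, a log2 fold change of 0.07, with overlapping groups.

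In complex III, Uqcrfs1 encodes the Rieske iron-sulfur protein, the core subunit among the members. It measured 75, 79.2 and 83.0 CPM in WT and 65.3, 75.1 and 72.6 in KO, a log2 fold change of -0.15 with an SE of 0.07 and an edgeR adjusted p of 0.199, and KO replicate 5 lay just inside the WT range. Uqcr11, with the highest log2 fold change of the complex, measured 18.8, 22.3 and 16.9 CPM in WT and 18.7, 20.6 and 21.3 in KO, a log2 fold change of 0.06. The other 6 members lay between -0.04 and 0.05.

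In complex IV, Cox7c measured 31.5, 32.2 and 32.0 CPM in WT and 28.4, 27.0 and 27.4 in KO, a log2 fold change of -0.21 with an SE of 0.08 and an edgeR adjusted p of 0.125. Cox6a1, the widely expressed form of subunit VIa, measured 67.1, 62.2 and 69.9 CPM in WT and 72.3, 74.8 and 77.1 in KO, a log2 fold change of 0.17 with an SE of 0.06 and an edgeR adjusted p of 0.131. In both genes the groups did not overlap, in opposite directions within the same enzyme. Cox7c shares 27.9% of its transcript's sequence words, counted as for Ndufb4, with other annotated genes, so its counts are uncertain. Cox7a1, with the highest log2 fold change of the complex, held 12, 5 and 15 raw counts in WT and 5, 14 and 24 in KO, and Cox6b2 held 11, 19 and 13 in WT and 17, 14 and 13 in KO. The counts of Cox7a1 and Cox6b2 are too few for a narrow bound, and the groups overlapped.

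In complex V the quartiles of the log2 fold change were -0.02 and 0.04, and no member had an unadjusted p under 0.05. Atp5a1 (alpha) and Atp5b (beta) form the catalytic head, F1. Atp5a1 measured 643, 667 and 642 CPM in WT and 622, 674 and 675 in KO, a log2 fold change of 0.01 with an interval of -0.10 to 0.13. Atp5b measured 688, 707 and 680.2 CPM in WT and 651, 699 and 694 in KO, a log2 fold change of -0.02 with an interval of -0.13 to 0.09. The groups overlapped in both, and the 5 F1 genes all lay between -0.02 and 0.04.

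The membrane ring of the synthase is made of subunit c, which 3 genes encode as the same mature protein. Atp5g3, the highest of them by FPKM, measured 137, 139.9 and 137 CPM in WT and 133, 129 and 138 in KO, a log2 fold change of -0.05. Atp5g1 measured 29.0, 30.6 and 27.6 CPM in WT and 30.9, 31.9 and 32.6 in KO, a log2 fold change of 0.13 (edgeR adjusted p = 0.373), with no overlap. Atp5g2 measured 11.8, 17.3 and 19.4 CPM in WT and 20.2, 11.4 and 16 in KO, so its libraries spread within both groups and its interval was -0.64 to 0.60. Atp5l, subunit g, had the highest log2 fold change in complex V, 0.20, with 11.1, 11.5 and 9.96 CPM in WT and 11.2, 12.4 and 13.8 in KO and overlapping groups. Atp5l shares 68.5% of its transcript's sequence words, counted as for Ndufb4, with other annotated genes, so its counts are uncertain.

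Of the 4 symbols that are not structural subunits, Atp5sl had the lowest unadjusted p. Its product, now named DMAC2, is a complex I assembly factor and no part of the ATP synthase. It measured 81.1, 57.4 and 61.8 CPM in WT and 51.5, 51.5 and 56.5 in KO, a log2 fold change of -0.33 with an SE of 0.12 and an edgeR adjusted p of 0.172. WT replicate 1 stood above the others, and without it the log2 fold change was -0.17 (edgeR adjusted p = 0.313). With B cell score added as covariate it was 0.02 (edgeR adjusted p = 0.985). KO replicate 6 lay just below WT replicate 2. It was called lower by DESeq2 (adjusted p = 0.0407), by edgeR with no filter on low counts (adjusted p = 0.000175, in a fit that called 6.83% of genes) and by edgeR without WT replicate 2 (adjusted p = 0.0272, in a fit that called 9.73% of genes). Cox7a2l measured 176, 164 and 162 CPM in WT and 149, 152 and 163 in KO, a log2 fold change of -0.11 with overlapping groups.

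Levels between genes are compared per length, on the authors' deposited FPKM (fragments scaled to gene length and depth). The median over members was 27.9 FPKM in complex I, 50.7 in complex II, 57.1 in complex III, 100 in complex IV and 44.5 in complex V. The lowest and highest genes were Ndufb2 (1.31 FPKM) and Ndufa6 (111.5) in complex I, Sdhc (18.0) and Sdha (61.9) in complex II, and Uqcrb (21.8) and Uqcrh (115) in complex III. In complex IV they were Cox6b2 (1.30) and Cox4i1 (267), and in complex V Atp5g1 (6.16) and Atp5a1 (208). Ndufb2 measured 7.17, 7.33 and 6.97 CPM in WT and 7.86, 6.81 and 8.38 in KO, and Uqcrb 17.0, 20.0 and 21.3 CPM in WT and 16.8, 20.2 and 19.7 in KO. Uqcrh measured 142, 147 and 146 CPM in WT and 137, 137 and 152 in KO. In all 3 the groups overlapped. Uqcrb shares 43.2% of the 50-base words of its transcript with other annotated genes, so its counts are uncertain. The 10 members that share over 25% of their transcript's 50-base words with other annotated genes, from Ndufb4 at 4.74 to Cox5b at 107 FPKM, had a median of 22.3 FPKM. The median was 36.6 FPKM for the 28 members that share up to 25% and 44.5 FPKM for the 41 that share none. What part shared sequence plays in these levels was not tested.

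**Figure D3:**
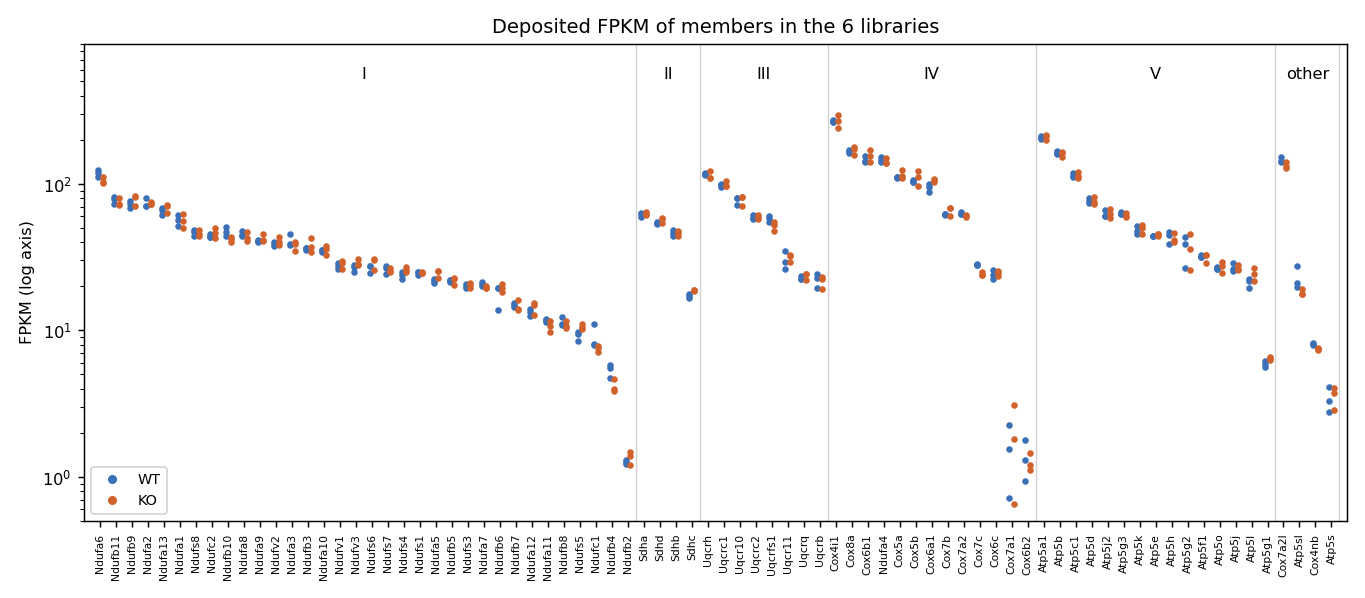
Deposited FPKM (log axis) of 78 members in the 3 WT and 3 KO libraries, ordered by mean within complexes I to V and the 4 symbols that are not subunits. Cox4i1 at a mean of 267 FPKM is the highest, and Cox7a1 and Cox6b2 near the bottom scatter most.

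Several complex IV subunits have tissue-specific paralogs, and in these cells the widely expressed form had the higher FPKM in each case. Cox4i1 had a mean of 267 FPKM and the hypoxia- and lung-linked Cox4i2 0.397 FPKM. Cox6a1 had 100 and the muscle form Cox6a2 0.0402 FPKM, and Cox6b1 had 151 and the testis form Cox6b2 1.30 FPKM. Cox7a2 had 61.5 and the muscle form Cox7a1 1.69 FPKM. Cox8a had 168 and Cox8b 0.166 FPKM, and Ndufa4 had 145 and Ndufa4l2 0.0172 FPKM. The widely expressed forms had log2 fold changes of 0.01 for Cox4i1, 0.09 for Cox6b1, -0.06 for Cox7a2, 0.02 for Cox8a and -0.04 for Ndufa4, none of them called. Cox4i2, below the minimum, had 8, 7 and 6 raw counts in WT and 3, 11 and 3 in KO.

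The KO libraries spread more than the WT libraries, and the members moved together in them. KO replicate 4 was the lowest library of the 6 for 32 members (40.5%, against 17.1% of all genes), and KO replicate 6 the highest for 40 (50.6%, against 17.6%). KO replicate 4 lay below KO replicate 6 in 69 members (87.3%, against 50.7%), with a median log2 difference of 0.13 beside 0.0037 over all genes. Related lists showed it too: KO replicate 4 lay below KO replicate 6 in 13 of 14 tricarboxylic acid cycle genes, 57 of 74 mitochondrial ribosomal protein genes (median log2 difference 0.11), 33 of 49 assembly factors (0.06) and 7 of 9 carriers and channels. It did so in 7 of 18 biogenesis regulators (-0.04). This pattern was noticed in the values and has no test. Cox4i1 shows it, at 163 CPM in KO replicate 4, 182 in replicate 5 and 203 in replicate 6, beside 181.5, 184 and 180.5 CPM in WT.

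Transcript length moved with the same difference. Among genes above 5 CPM in 4 bins of transcript length, the median log2 difference between KO replicates 6 and 4 was 0.11 in the shortest bin (up to 1977 bases), 0.04 and -0.01 in the next 2, and -0.12 in the longest (from 4528 bases). Of the 79 members 70 lie in the shortest bin, and their median length was 865 bases. The part of length in the members' pattern was not tested. Without KO replicate 4 the complex IV difference was 0.08 on the log2 scale and without KO replicate 6 it was -0.0086.

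**Figure D4:**
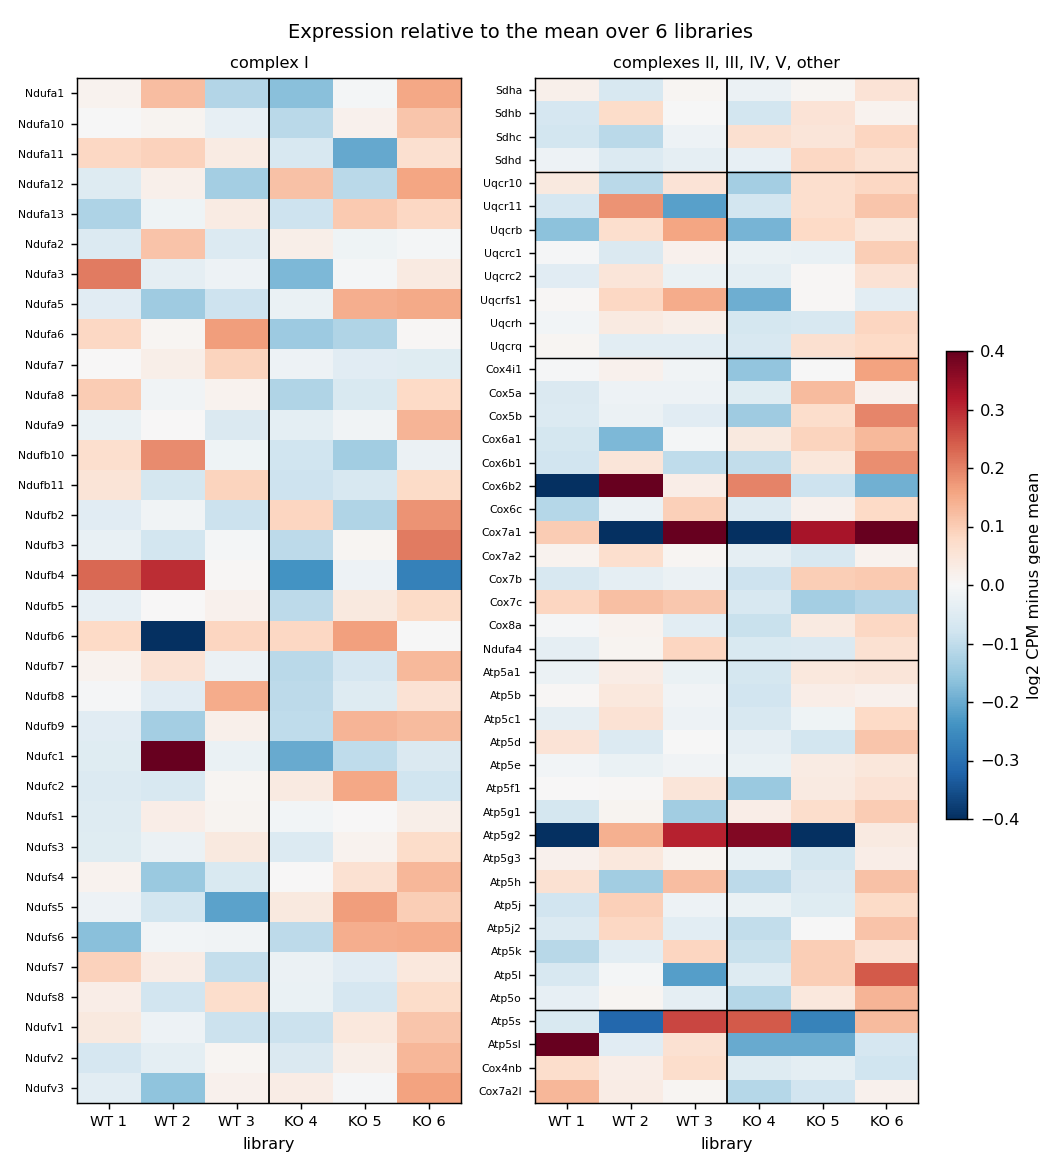
Log2 CPM of 78 members in the 6 libraries minus its mean over them, with WT to the left and KO to the right of the line, on a colour scale that ends at 0.4 either way. KO replicate 4 is mostly blue and KO replicate 6 mostly red, while no block of genes separates the groups.

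Other genes of the pathway were read from lists by the same edgeR fit. Of 6 further chain and synthase proteins that the symbols do not cover 0 passed in either direction, with Ndufab1, the acyl carrier protein of complex I, at a log2 fold change of -0.23 and the ATP synthase inhibitor gene Atpif1 at 0.07. Of 49 assembly factors tested 0 passed and the median was 0.04. The copper chaperone gene Cox17 had -0.40 (edgeR adjusted p = 0.149) and Lyrm7, an assembly factor of complex III, 0.44 (edgeR adjusted p = 0.224). Of 14 tricarboxylic acid cycle genes 0 passed, with a median of 0.03 and Idh3a at 0.15. Of 74 mitochondrial ribosomal protein genes 0 passed, with a median of 0.0096, Mrps24 at -0.19 and Mrpl3 at 0.16. Of the 13 subunits encoded in mitochondrial DNA 0 were found in the deposited raw counts, so they could not be analysed.

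Single genes passed in the remaining lists. Of 18 regulators of mitochondrial biogenesis tested 1 rose and 0 fell, with a list median of 0.06. It was Polg2, the accessory subunit of the mitochondrial DNA polymerase, which rose from 31.1, 35.3 and 37.2 CPM in WT to 54.9, 62.7 and 53.8 CPM in KO, a log2 fold change of 0.73 with an SE of 0.08 and an edgeR adjusted p of 0.000284. The groups lay far apart. With B cell score added as covariate its edgeR adjusted p was 0.0866.

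Of 9 carriers and channels 1 rose and 0 fell, with a list median of 0.03. It was Slc25a3, which carries phosphate into mitochondria, where the ATP synthase uses it. It rose from 435.9, 429 and 433 CPM in WT to 507, 506 and 467 CPM in KO, a log2 fold change of 0.19 with an SE of 0.05 and an edgeR adjusted p of 0.0479, and the groups did not overlap. The call ended when WT replicate 1 (edgeR adjusted p = 0.135), 2 (0.0846) or 3 (0.165) was left out, and likewise for KO replicates 4 (0.0845) and 5 (0.159). It also ended with DESeq2's size factors in edgeR (0.0549), in limma-voom (0.0581), in edgeR without WT replicates 1 and 3 (0.368) and with B cell score added as covariate (0.49).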

How the data were processed

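Per the submitters' processing notes the tools were bcl2fastq, STAR 2.4.2a and DESeq2, on GRCm38. Which tool counted the reads, whether it used strand and with what annotation are not given in the sources here, so the 31 members that overlap another annotated gene may share reads with it. The authors deposited raw counts per Ensembl gene, normalized counts (a signal that matched the raw counts over a library factor within 1e-06 in 99.88% to 99.89% of genes above 50 counts) and FPKM (normalized counts over 1 constant per gene, for 100.0% of 10870 genes checked). Symbols and positions came from GENCODE M21, which matched 35412 of 37187 IDs. All sample columns were used.

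Raw counts were fitted with edgeR 4.0.16 in R 4.3.3 (filterByExpr, TMM factors, robust quasi-likelihood). CPM values use the TMM factors, and complexes were added to the fit as summed counts. The standard errors and 95% intervals of log2 fold changes come from that fit, which was checked on simulated data. There 95.3% of the intervals of single genes covered the true value. Genes were drawn independently of each other, with the same spread in both groups. Sums over a complex were not simulated, so their intervals were not checked. The fit called 22.3% of genes changed 1.25-fold and 59.9% of those changed 1.5-fold, drawn from genes of all levels. The lack of a call alone thus does not show that a member changed by less than such folds. Its 95% interval gives the bound, which stayed within 1.25-fold for 64 of the 79 members. Alternatives were DESeq2 1.42.0, limma-voom (limma 3.58.1), RLE and upper-quartile factors, other filters, limma on log2 values of normalized counts (pseudocount 1) and of FPKM (pseudocounts 1 and 0.1), a B cell score (mean log2 CPM of the markers) as covariate, other member rules and left-out libraries. Chi-square over degrees of freedom between libraries of a group ran from 4.81 to 13.4, so none was a duplicate. Totals of 18071928 to 21165063 counts set the depth.

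Named members were the largest rise and fall and the highest and lowest FPKM of each complex, core catalytic subunits, paralogs, genes next to the minimum and any called member. A few that it names are not reported in the text or figures. The members, lists and rules were chosen with earlier results of these data known. Promoter sequences are RefSeq's on GRCm38.p6, and 15 members had no entry.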

Additional observations from a re-analysis of the deposited data

How the results depend on the processing

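Of the results over all members and complexes, 158 of 162 values under the alternatives were classed as the same. For the numbers of members called this meant staying at 0. For medians and summed differences it meant moving by less than 1 SD between replicates. Direction was not part of this rule, and some values near 0 changed sign, as the ranges below show. Members called lower numbered 1, Atp5sl, with no filter on low counts and in DESeq2, and 0 to 1 when 1 library was left out, the 1 without WT replicate 2. Members called higher stayed at 0 in every alternative run. The summed difference of complex V moved to -0.0556 (log2) with B cell score added as covariate, with an interval of -0.295 to 0.184. For these the cause was not tested. Leaving out 1 library gave log2 differences of -0.0294 to 0.04 for complex I, 0.0257 to 0.0623 for II, -0.0427 to 0.0271 for III, -0.00856 to 0.0847 for IV and -0.0277 to 0.0316 for V. The median log2 fold change of members ran from -0.0229 to 0.0342 over the other alternatives and from -0.0116 to 0.0531 with 1 library left out. Calls over all genes, 886 as reported, ran with 1 library left out from 367 (WT replicate 3) to 1364 (WT replicate 2). They numbered 1645 with no filter on low counts, 1412 at an adjusted p threshold of 0.1 and 47 with B cell score added as covariate. Without WT replicates 1 and 3 a lone WT library was assumed to vary like the KO libraries, and 282 genes were called. Depth limits Cox7a1 and Cox6b2, with under 25 counts in every library. No paired analysis was possible because the groups share no replicate numbers (1 to 3 against 4 to 6).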

Other observations

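The order of members by level depended on the gene length used. On the deposited FPKM the highest member of complex V was Atp5a1 (208 FPKM), and on CPM per kilobase of the principal GENCODE transcript it was Atp5b (358 CPM per kilobase). In complex I the highest was Ndufa6 (111.5 FPKM) on the first scale and Ndufb7 (108 CPM per kilobase) on the second. For the subunit c genes both scales gave the same order, Atp5g3 (61.9 FPKM, 188 CPM per kilobase), Atp5g2 (36.2 and 21.9) and Atp5g1 (6.16 and 6.45). By normalized counts alone Atp5g1 (612) lay above Atp5g2 (322), since 1 FPKM stood for 99.3 normalized counts in Atp5g1 and 8.91 in Atp5g2. Complex IV kept the highest median of the 5 complexes on both scales, 100 FPKM and 117 CPM per kilobase.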
